A study of Mus musculus with 15 samples.

Results

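Serpin genes encode a superfamily of proteins, most of which inhibit serine proteases. They were taken from the table of ovarian gene expression by symbol, as every gene named Serpin followed by a clade letter from a to i and a number, with 3 symbols marked as pseudogenes left out. This gave 52 genes of 27907 in all. Of these, 24 belonged to clade A, 17 to clade B, 3 to clade E, 2 each to clades F and I and 1 each to clades C, D, G and H. A gene entered the test if its normalized counts averaged 2 or more over all mice, and 40 of the 52 did. The other 12 reached at most 8.59 normalized counts in any mouse and are not described singly.

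The ovaries came from 6-month-old female mice in estrus, 1 library per mouse. HSD17B1-KI mice (n = 7) were homozygous for the Ser143Ala point mutation of HSD17B1, the granulosa cell enzyme that reduces estrone to estradiol, and WT mice (n = 8) carried no mutation. Both groups came from matings of heterozygous parents. The mutation was present in every cell of the body, so that a difference in the ovary could arise there or elsewhere. Counts per gene do not show a point mutation, so they do not check the genotype labels, and Hsd17b1 itself ranged from 5459 to 17386 normalized counts in HSD17B1-KI and from 6480 to 14111 in WT mice. The gene counts summed to between 26544745 and 72362981 reads per library. A normalized count is a read count divided by the size factor of its library, and it was compared between genotypes as log2(normalized count + 1) with limma-trend, with p-values adjusted over all 21525 genes tested.

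An inhibitory serpin offers a flexible stretch near its end, the reactive center loop, as bait. The protease cuts the loop, the serpin snaps into a new fold, and the protease stays trapped and inactive, so the residues of the loop set which proteases a serpin can hold. In the ovary, protease and inhibitor pairs are known for their part in the breakdown of the follicle wall and in clotting and matrix turnover, and granulosa cells are a known source of Serpine2, or protease nexin-1, which holds thrombin and the plasminogen activators. In mice the human SERPINA3 gene (alpha-1-antichymotrypsin) is matched by a row of Serpina3 paralogs, whose loops differ more than the rest of the genes.

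That difference can be read from the reference coding sequences of GENCODE M21 (GRCm38), in which the 90 bases of Serpina3n from codon 367 to codon 396 span the loop. Capitals mark the bases that differ from Serpina3n or are inserted relative to it, and the lines are shown because the paralogs that differed between the genotypes are told apart most clearly here.
Serpina3n: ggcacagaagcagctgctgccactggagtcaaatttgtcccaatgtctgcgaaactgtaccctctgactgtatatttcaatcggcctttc
Serpina3a: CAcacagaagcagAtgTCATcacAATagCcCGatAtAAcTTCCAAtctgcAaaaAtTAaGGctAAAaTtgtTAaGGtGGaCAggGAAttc
Serpina3b: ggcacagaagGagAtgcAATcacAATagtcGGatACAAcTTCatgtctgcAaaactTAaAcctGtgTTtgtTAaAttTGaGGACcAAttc
Serpina3c: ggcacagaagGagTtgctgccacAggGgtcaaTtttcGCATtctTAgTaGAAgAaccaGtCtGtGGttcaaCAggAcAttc
Serpina3f: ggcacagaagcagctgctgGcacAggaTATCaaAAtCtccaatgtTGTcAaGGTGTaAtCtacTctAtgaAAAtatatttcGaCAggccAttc
Serpina3g: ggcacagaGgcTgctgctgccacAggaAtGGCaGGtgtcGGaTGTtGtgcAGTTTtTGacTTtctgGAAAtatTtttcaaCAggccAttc
Serpina5: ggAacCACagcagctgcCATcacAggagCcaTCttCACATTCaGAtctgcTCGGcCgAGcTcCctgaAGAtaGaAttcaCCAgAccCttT
Serpine2: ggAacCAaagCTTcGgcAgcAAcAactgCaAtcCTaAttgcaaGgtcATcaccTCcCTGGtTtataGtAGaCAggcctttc
Serpina3a matched Serpina3n in 52.2% of the aligned loop bases and in 80.7% of the aligned coding bases outside the loop. The same pair of values was 61.1% and 80.3% for Serpina3b, 69.1% and 87.0% for Serpina3c, 71.9% and 86.3% for Serpina3f, and 64.4% and 88.0% for Serpina3g. For Serpina5, which is not a Serpina3 paralog, the values were 55.6% and 60.0%. The GENCODE coding sequence of Serpina3g is short, with 744 bases against 1254 in Serpina3n, so its value covers less of the gene.

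Near-identical copies can share reads, which makes counts uncertain. No stretch of 100 bases in the longest transcripts of Serpina5, Serpina3a, Serpina3b, Serpina3c or Serpine2 occurred unchanged in a transcript of another gene. Of such stretches, 4.64% were shared in Serpina3g, 3.58% in Serpina3f and 0.204% in Serpina3n. In the 5 tested Serpina1 paralogs the share was larger, from 14.8% in Serpina1e to 58.5% in Serpina1c, so the counts of single Serpina1 genes are uncertain. How the authors treated reads that fit several genes is not given in the sources used here.

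The highest serpin levels per kilobase of exon belonged to several clades. Serpinh1, or HSP47, a collagen chaperone that inhibits no protease, was the highest with 13669.9 ± 2793 normalized counts per kilobase in HSD17B1-KI (SD, n = 7) and 15475 ± 3393 in WT mice (SD, n = 8). Next in the mean over all mice stood Serpina5 with 8562 ± 5193 and 1920.2 ± 1379 on the same scale, the only one of the 8 highest whose 2 means lay more than 1.5 times apart. Serpine2 followed with 3392 ± 971 and 3388 ± 1147, then Serping1, Serpinb6a, Serpinb6b, Serpinf1 and Serpinb1a, whose group means lay between 1755 and 3344. The SDs of these neighbors overlapped, so their order below Serpinh1 is not firm. The length used was the union of all annotated exons, 8287 bases in Serpine2 and 5409 in Serpinb6a. Their longest transcripts had only 2210 and 1654 bases, whereas Serpina5 had 2162 by both measures. Per kilobase of transcript, Serpine2 and Serpinb6a would therefore stand higher than given here, so the place of Serpina5 above them depends on the length used.

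The comparison of the genotypes showed higher means of Serpina5 and of several Serpina3 genes in HSD17B1-KI ovaries, and close means in most other clades. By limma-trend no serpin passed an adjusted p of 0.05, while 0.214% of all genes tested did. Without that adjustment 9 serpins were higher and 3 lower at p under 0.05, beside 5.36% and 4.64% of all genes tested in the 2 directions. edgeR on the recovered reads called 0 serpins and 0.232% of all genes. DESeq2, the tool named in the study's methods, gave an adjusted p for 36 of the 40 and called 5 of them, which were Serpina3a, Serpina3b, Serpina3c, Serpina3g and Serpina5. Over all genes it called 2.3%, and 1.59% were higher in HSD17B1-KI, the direction of all 5. Without WT 1 and WT 8, the libraries with the most oviduct RNA, DESeq2 called 3 serpins, Serpina3a, Serpina3c and Serpina3g, beside 1.24% of all genes.

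Serpina5, the protein C inhibitor, was the most abundant clade A serpin. Its normalized counts in the 7 HSD17B1-KI mice were 31105, 24359, 16287, 14081, 2131, 32207 and 9402, in the order of their numbers. In the 8 WT mice they were 2264, 2827, 902, 5681, 5293, 658, 9203 and 6384. Thus 6 of 7 HSD17B1-KI mice lay above every WT mouse, and HSD17B1-KI 5 lay within the WT range. The mean was 4.46 times that of WT, and the difference on the log2 scale was 2.23 ± 0.64 (SE, 95% interval 0.87 to 3.59, limma-trend adjusted p = 0.192, DESeq2 adjusted p = 0.0177). The exact permutation test over all 6435 splits of the mice, two-sided, gave p = 0.00963.

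Serpina3c gave the largest log2 difference of all serpins tested by limma-trend. Its counts were 8191, 6198, 3929, 2481, 393, 8222 and 2253 in HSD17B1-KI 1 to 7, and 316, 419, 183, 1421, 548, 231, 2444 and 1446 in WT 1 to 8. Of the HSD17B1-KI mice, 5 lay above every WT mouse, and HSD17B1-KI 5 again lay low. The mean was 5.17 times that of WT, with a log2 difference of 2.44 ± 0.68 (SE, 95% interval 0.99 to 3.88, limma-trend adjusted p = 0.175, DESeq2 adjusted p = 0.0176, exact permutation p = 0.00948).

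Serpina3a counted 643, 301, 181, 130.2, 65.9, 466 and 195 in HSD17B1-KI 1 to 7 and 59.4, 49.2, 46.2, 95.5, 47.2, 17.5, 97.5 and 76.3 in WT 1 to 8. All but HSD17B1-KI 5 exceeded every WT mouse, and that mouse exceeded the WT mean. The log2 difference was 2.01 ± 0.45 (SE, 95% interval 1.05 to 2.96, limma-trend adjusted p = 0.0878, edgeR adjusted p = 0.0554, DESeq2 adjusted p = 7.71e-05, exact permutation p = 0.00124). Serpina3b was sparser, from 17.1 to 67.4 with a median of 42.3 in HSD17B1-KI and from 2.2 to 24.1 with a median of 14 in WT mice. Here too 6 of 7 HSD17B1-KI mice exceeded every WT mouse, with a log2 difference of 1.82 ± 0.49 (SE, limma-trend adjusted p = 0.155, DESeq2 adjusted p = 0.0161).

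Serpina3g, whose product is known to inhibit cysteine cathepsins, had the tightest groups of these 5 genes. Its counts were 4229, 3423, 2458, 4721, 1504, 5767 and 2571 in HSD17B1-KI 1 to 7, against 823, 1174, 1575, 2175, 1494, 1584, 1747 and 2082 in WT 1 to 8. HSD17B1-KI 5 was once more the only mutant within the WT range. The mean was 2.23 times that of WT, with a log2 difference of 1.09 ± 0.26 (SE, 95% interval 0.53 to 1.65, limma-trend adjusted p = 0.107, DESeq2 adjusted p = 0.00217, exact permutation p = 0.00264).

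**Figure D1:**
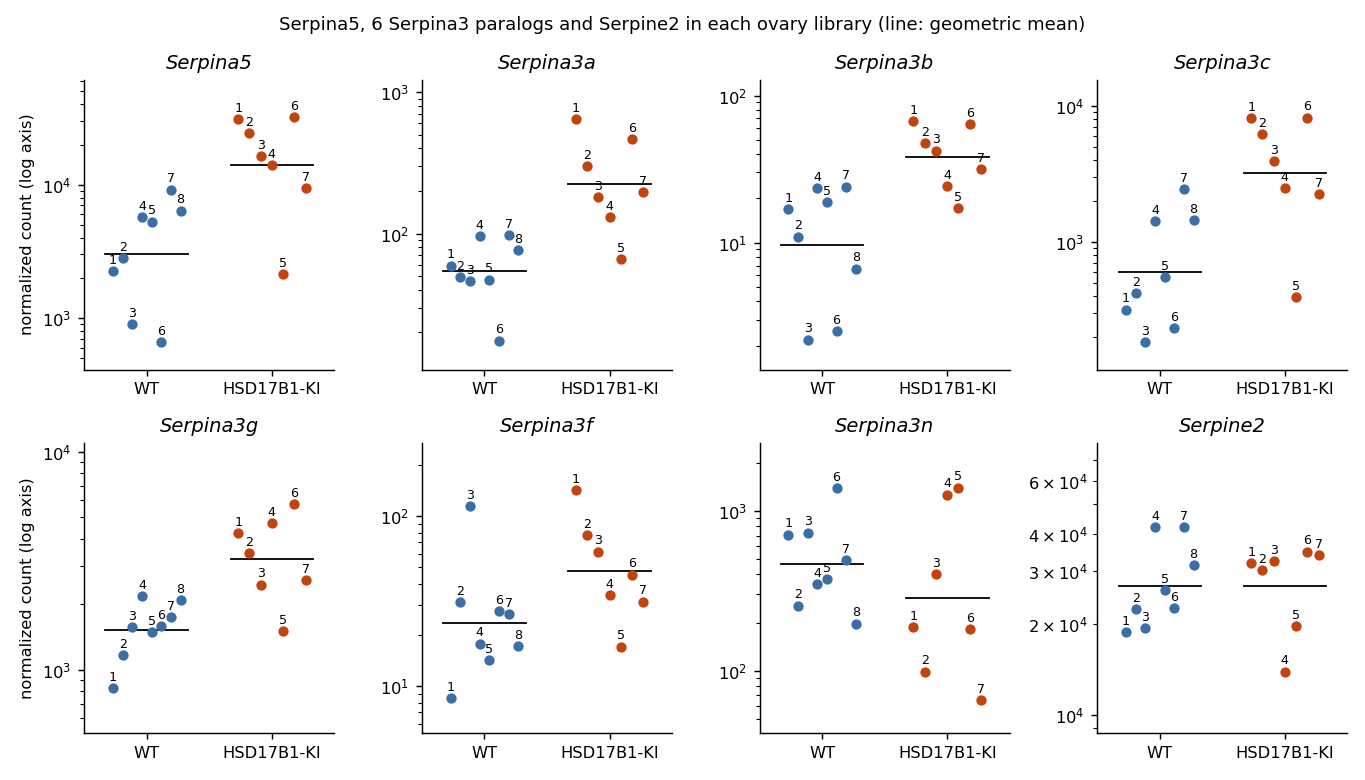
Normalized counts (vertical, log axis) of Serpina5, 6 Serpina3 paralogs and Serpine2 in each library of 8 WT (blue) and 7 HSD17B1-KI (red) mice, with the mouse number beside each point and a line at the geometric mean. In Serpina5, Serpina3a, Serpina3b and Serpina3g 6 of 7 HSD17B1-KI mice sit above every WT mouse, whereas the groups of Serpina3n and Serpine2 overlap.

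Which serpins were called depended in part on single mice. Without HSD17B1-KI 5, limma-trend called 4 serpins, Serpina3a, Serpina3c, Serpina3g and Serpina5, beside 0.646% of all genes; leaving out any other mouse it called 0. DESeq2 with 1 mouse left out called between 1.42% and 3.41% of all genes, and Serpina3a and Serpina3g kept an adjusted p under 0.05 in all 15 fits. Serpina3b and Serpina3c kept it in 12 of 15, and lost it without HSD17B1-KI 1, HSD17B1-KI 2 or HSD17B1-KI 6. Serpina5 kept it in 11 of 15, and lost it also without WT 1, with adjusted p up to 0.0765 in DESeq2.

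The remaining Serpina3 paralogs did not share this pattern alike. Serpina3f ranged from 17.1 to 142 with a median of 45.2 in HSD17B1-KI and from 8.49 to 114 with a median of 22.1 in WT mice. WT 3 held the 114, and the groups overlapped (log2 difference 0.98, 95% interval -0.06 to 2.03, limma-trend adjusted p = 0.530). Serpina3i stayed under 27 in every mouse, with means of 11.6 ± 8.04 in HSD17B1-KI (SD, n = 7) and 4.95 ± 4.13 in WT (SD, n = 8) and a limma-trend adjusted p of 0.425. Serpina3h, annotated as a transcribed pseudogene, and Serpina3k and Serpina3m had means of 2.50 to 7.18 in the groups and log2 differences of -0.02, 0.19 and 0.50 (the sign of Serpina3h turned in DESeq2 and edgeR). Serpina3n, a secreted inhibitor known as an acute-phase protein, stood apart from the other abundant paralogs, with counts of 187, 98.3, 403, 1266, 1402, 181 and 65.1 in HSD17B1-KI 1 to 7 and 711, 255, 732, 348, 373, 1391, 494 and 197 in WT 1 to 8. HSD17B1-KI 4, HSD17B1-KI 5 and WT 6 were high, 4 HSD17B1-KI mice lay below every WT mouse, and the log2 difference was -0.71 with a 95% interval of -2.05 to 0.63 (limma-trend adjusted p = 0.758), and -0.13 by DESeq2. Over the 10 Serpina3 paralogs tested, 8 had a higher and 2 a lower mean log2 value in HSD17B1-KI, and the median log2 difference was 1.04, beside -0.02 over all genes tested.

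These genes lie together. On mouse chromosome 12 (GRCm38, mm10), 23 of the 24 clade A genes stand within 799.544 kb, between 103614786 and 104414329. Serpina5 (104101113 to 104106137, plus strand), Serpina3a (104112724 to 104121896, plus strand), Serpina3b (104127996 to 104139545, plus strand) and Serpina3c (104146382 to 104153870, minus strand) follow each other within 52.758 kb. Gm23289, a short gene annotated as rRNA between Serpina5 and Serpina3a (104109283 to 104109390, plus strand), had a log2 difference of 1.91 (DESeq2 adjusted p = 0.0236). Whether its reads came from a separate transcript was not tested. A gap of 82.374 kb separates Serpina3c from Serpina3g (104236245 to 104241939, plus strand), and Serpina3n (104406729 to 104414329, plus strand) closes the row. The 5 tested genes next to each end of the cluster, Ddx24 to Ppp4r4 on one side and Gsc to Syne3 on the other, had log2 differences from -0.48 to 0.46, none with an unadjusted limma-trend p under 0.05.

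**Figure D2:**
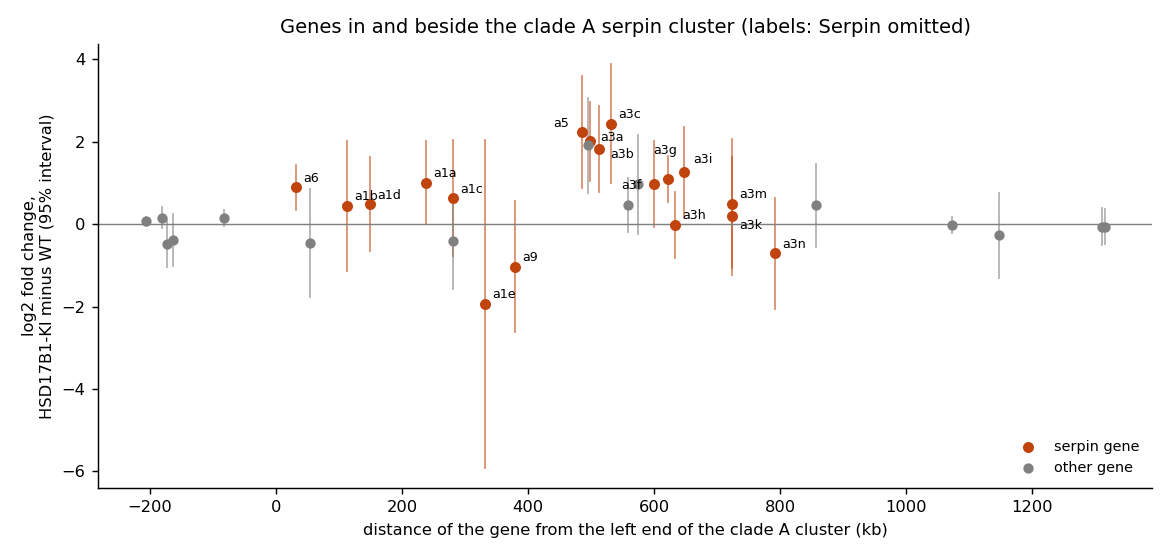
Log2 difference between HSD17B1-KI and WT (vertical, limma-trend, with 95% intervals) against the distance of each tested gene from the left end of the clade A cluster in kb, serpin genes in red and other genes in grey, with Serpin left off the labels. The 4 adjacent genes Serpina5, Serpina3a, Serpina3b and Serpina3c sit between 1.82 and 2.44, and the flanking genes between -0.48 and 0.46.

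The 100 bases before the RefSeq starts (GRCm38.p6) show which of these neighbors have like promoters. Capitals mark CATTTCCTAAGA, the longest run shared by the windows of 250 bases before the starts of Serpina3b, Serpina3c, Serpina3f and Serpina3n, which was then searched on both strands of all such windows.
Serpina3b, chr12:104127896-104127995, plus strand: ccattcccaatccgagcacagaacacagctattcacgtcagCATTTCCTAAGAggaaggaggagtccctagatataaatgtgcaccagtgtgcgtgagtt
Serpina3c, chr12:104153873-104153972, minus strand: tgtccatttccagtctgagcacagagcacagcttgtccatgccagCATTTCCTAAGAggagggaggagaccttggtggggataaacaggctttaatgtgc
Serpina3f, chr12:104214444-104214543, plus strand: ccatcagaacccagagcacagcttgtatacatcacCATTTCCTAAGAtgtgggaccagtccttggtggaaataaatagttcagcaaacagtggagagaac
Serpina3n, chr12:104406608-104406707, plus strand: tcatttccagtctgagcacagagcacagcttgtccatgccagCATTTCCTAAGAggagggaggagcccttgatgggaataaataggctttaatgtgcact
Serpina3a, chr12:104112624-104112723, plus strand: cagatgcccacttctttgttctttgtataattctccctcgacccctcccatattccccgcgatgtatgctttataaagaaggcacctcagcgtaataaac
Serpina5, chr12:104101013-104101112, plus strand: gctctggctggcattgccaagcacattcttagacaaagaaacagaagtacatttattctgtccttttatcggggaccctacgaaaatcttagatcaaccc
Serpina3g, chr12:104236047-104236146, plus strand: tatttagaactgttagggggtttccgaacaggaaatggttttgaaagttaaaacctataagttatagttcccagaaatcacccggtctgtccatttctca
The run was present in 9 of 32851 promoters (0.0274%), of which 5 belonged to serpins. Serpina3b, Serpina3c, Serpina3f and Serpina3n held the run because it was chosen from them, and Serpina3i was the only serpin that the search added. It was not in the windows of Serpina5, Serpina3a or Serpina3g. Thus genes with and without these letters stood among the 5 that DESeq2 called, and Serpina3n carried them too. Of the 52 serpin genes, 43 had a promoter in the table used.

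Within each genotype, mice high in Serpina5 were also high in Serpina3c and Serpina3a. In HSD17B1-KI mice the log2 values of Serpina5 and Serpina3c gave r = 0.994 and rho = 1.00 (n = 7, exact permutation p = 0.000198 and 0.000397, adjusted 0.000893 and 0.00119 over the 18 relations computed). In WT mice they gave r = 0.912 and rho = 0.976 (n = 8, exact permutation p = 0.00156 and 0.000397, adjusted 0.00469 and 0.00119). Without the 2 mice farthest from the median of Serpina5, r was 0.968 in HSD17B1-KI and 0.930 in WT mice. For Serpina3a, r was 0.897 and 0.839 in the 2 genotypes and rho 0.857 and 0.881 (exact permutation p = 0.00258 and 0.00407 for r, 0.0238 and 0.00724 for rho, adjusted at most 0.0429), and r fell to 0.800 and 0.666 without the farthest 2.

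For the other paralogs the relation depended on the mice included. For Serpina3b, r was 0.908 in HSD17B1-KI and 0.820 in WT mice (exact permutation p = 0.00238 and 0.0156, adjusted 0.00580 and 0.0246; rho 0.929 and 0.714, p = 0.00675 and 0.0576), but in WT it rested on 2 mice, with r = 0.201 without them. For Serpina3g, r was 0.852 and 0.331 (exact permutation p = 0.0135 and 0.433, adjusted 0.0243 and 0.433; rho 0.714 and 0.524, p = 0.0881 and 0.197), and without the farthest 2 mice 0.465 and 0.855. For Serpina3f, r was 0.826 and -0.483 (exact permutation p = 0.0224 and 0.235, adjusted 0.0310 and 0.249; rho 0.786 and -0.333, p = 0.0480 and 0.428), and without the farthest 2 mice 0.948 and 0.392, so its sign in WT rested on those mice. Serpina3n ran the other way, with r = -0.540 and -0.750 (exact permutation p = 0.203 and 0.0324, adjusted 0.228 and 0.0417; rho -0.357 and -0.690, p = 0.444 and 0.0694), but without the farthest 2 mice r was -0.01 and -0.25, so it rested on those mice. These relations were chosen after the values were seen. The 2 genes of a pair were read in the same libraries, which differed in depth and tissue makeup, and the part of these in the relations was not tested.

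**Figure D3:**
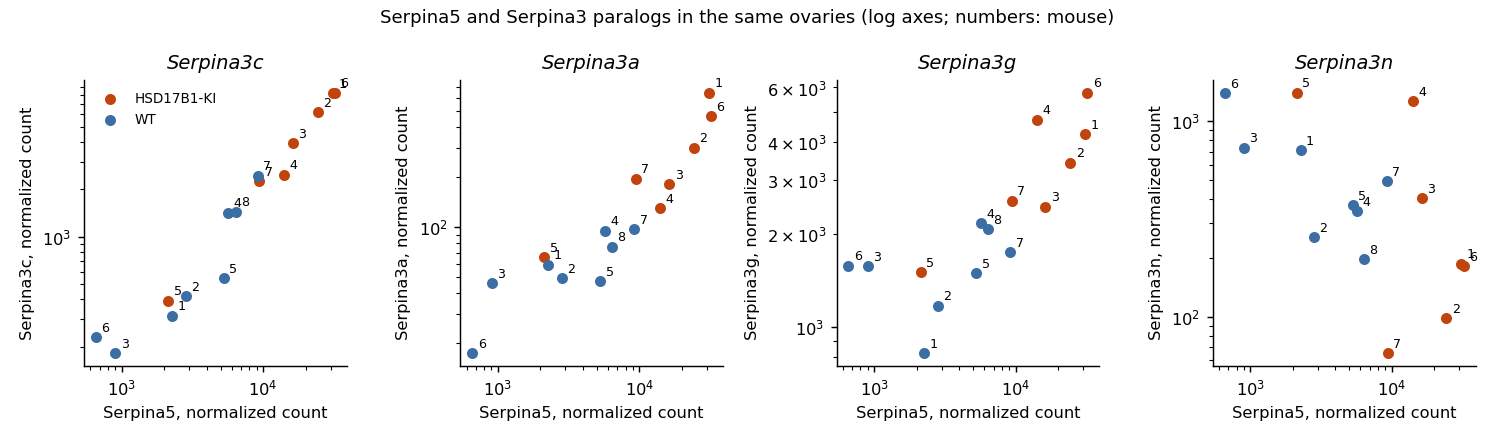
Normalized counts of Serpina3c, Serpina3a, Serpina3g and Serpina3n (vertical) against those of Serpina5 (horizontal) in the same libraries, both on log axes, HSD17B1-KI in red and WT in blue, with mouse numbers. Serpina3c follows Serpina5 in both genotypes (r = 0.994 and 0.912), and Serpina3n is highest in HSD17B1-KI 5, WT 6 and HSD17B1-KI 4.

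Markers of several cell types also differed from mouse to mouse. Cyp17a1, the androgen-making enzyme of theca cells, stood at 224 and 254 normalized counts in HSD17B1-KI 4 and HSD17B1-KI 5 and at 107 and 141 in WT 3 and WT 6, while the other mice held 2033 to 56551. WT 3, WT 6 and HSD17B1-KI 5 were also the lowest of their genotype in Serpina5, but HSD17B1-KI 4 was not. The summed theca and interstitial markers (8 of 8 measured, none at 0 in all mice) ran from 259881 to 560922 in HSD17B1-KI (median 426271). In WT mice they ran from 188747 to 442998 (median 336217). Luteal markers (6 of 6) ran from 50343 to 140242 (median 85772) in HSD17B1-KI and from 26822 to 136553 (median 46803) in WT mice. Adipose markers (8 of 8) ran from 7054 to 21791 (median 7602) and from 8709.9 to 51922 (median 23485). Of the 8 adipose markers 6 were lower and 1, Plin1, higher in HSD17B1-KI at an unadjusted limma-trend p under 0.05, beside 4.64% and 5.36% of all genes. Of the luteal and adipose markers 0 passed the adjusted test in limma-trend or DESeq2. Of the 8 theca and interstitial markers 0 passed it in limma-trend and 1 in DESeq2, beside 2.3% of all genes in DESeq2. In whole ovaries, fewer cells of a type and less RNA per cell cannot be told apart, and the part of tissue makeup in the serpin differences was not tested.

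Serpine2 had close means in the 2 genotypes. It counted 31817, 30236, 32447, 13907, 19678, 34804 and 33901 in HSD17B1-KI 1 to 7 and 18762, 22468, 19366, 42069, 25876, 22548, 42055 and 31449 in WT 1 to 8. The means were 28113 ± 8044 (SD, n = 7) and 28074 ± 9502 (SD, n = 8), and the log2 difference was 0.00 ± 0.23 with a 95% interval of -0.48 to 0.49 (limma-trend adjusted p = 0.998, exact permutation p = 0.988). Differences inside that interval, in either direction, were not excluded with these mice. Summed granulosa markers (8 of 8, none at 0 in all mice) ran from 86978 to 239343 in HSD17B1-KI and from 107587 to 223186 in WT mice. Among HSD17B1-KI mice the granulosa sums were lowest in HSD17B1-KI 4 and HSD17B1-KI 5, with 86978 and 118816, the 2 mutants lowest in Serpine2. Among WT they were highest in WT 7 and WT 4, with 223186 and 216790, the 2 WT mice highest in Serpine2.

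Clade A outside the Serpina3 row held 8 tested genes. Serpina6, the corticosteroid-binding globulin, was sparse and ranged from 12.4 to 39.0 with a median of 15.9 in HSD17B1-KI and from 5.09 to 12.6 with a median of 9.14 in WT mice. Of the HSD17B1-KI mice 6 lay above every WT mouse (log2 difference 0.90 ± 0.26, SE, limma-trend adjusted p = 0.189, DESeq2 adjusted p = 0.0734, exact permutation p = 0.000777). With Serpina5, Serpina3a, Serpina3b and Serpina3g this made 5 of 40 serpins with at least 6 of 7 HSD17B1-KI mice above every WT mouse, beside 0.938% of all genes tested. No serpin separated the groups fully, beside 0.274% of all genes with every HSD17B1-KI mouse higher and 0.0511% with every one lower.

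The Serpina1 paralogs, of the alpha-1-antitrypsin type, varied by single mice. The 5 tested had log2 differences from -1.93 to 1.01, none with an unadjusted limma-trend p under 0.05. Serpina1b, chosen after its values were seen, was highest in HSD17B1-KI 5, WT 3 and WT 6 with 121, 102 and 93.7 normalized counts, and at most 38.3 in any other mouse. Serpina1e, chosen likewise, reached 7026 in WT 1, 2288 in WT 8, 1611 in WT 4 and 314 in HSD17B1-KI 6, and at most 10.4 in the rest. The HSD17B1-KI mean was 0.0367 times the WT mean, with a 95% interval of -5.91 to 2.05 for the log2 difference (limma-trend adjusted p = 0.786, DESeq2 adjusted p = 0.0691). Without WT 1 and WT 8 the difference was 0.23 by limma-trend, the only 1 of 40 alternative fits in which its sign turned.

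Clade B, the intracellular serpins of leukocytes and epithelia, held 13 tested genes, with a median log2 difference of 0.04. Serpinb6a, an inhibitor of cathepsin G, was the highest per kilobase and ranged from 12349 to 25857 with a median of 15051 in HSD17B1-KI and from 11422 to 24446 with a median of 13887 in WT mice, with overlapping groups (log2 difference 0.20, 95% interval -0.23 to 0.64). Serpinb1a, an inhibitor of neutrophil elastase, averaged 5267 ± 1107 in HSD17B1-KI (SD, n = 7) and 4042 ± 975 in WT mice (SD, n = 8), and 6 of 7 HSD17B1-KI mice exceeded the WT mean (log2 difference 0.39, 95% interval 0.06 to 0.72, limma-trend adjusted p = 0.394). Serpinb2, or PAI-2, and Serpinb6c had at most 12.6 normalized counts in any mouse and log2 differences of -1.10 and -0.90 (limma-trend adjusted p = 0.487 and 0.452).

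Among clade B genes, Serpinb5, Serpinb11 and Serpinb12, together with Serpina9 of clade A, were highest in libraries rich in oviduct markers and were chosen after their values were seen. Serpinb5, or maspin, stood at 66.2 in WT 1 and 57.3 in WT 8 and at most 6.51 in the other 13 mice. Serpina9 stood at 112 in WT 1 and 115 in WT 8, and at most 18.6 elsewhere. Serpinb12 stood at 139 and 102 in the same 2 mice, with 79.0 in HSD17B1-KI 1 as the next. Serpinb11 was highest in WT 8, HSD17B1-KI 1, WT 1, HSD17B1-KI 3 and WT 7, and at most 35.6 elsewhere. The summed oviduct markers (8 of 8, none at 0 in all mice) were 229483 in WT 1 and 151084 in WT 8, 24439.7 in HSD17B1-KI 1 as the next highest, and 273 in the lowest library. WT 1 and WT 8 were also highest in summed neutrophil markers (15940 and 8596) and ovarian surface epithelium markers (40352 and 36509). Links of these serpins to the separate marker lists cannot be told apart in WT 1 and WT 8, and were not tested over the other mice. WT 4, with sums of 15690 for oviduct, 5948 for neutrophil and 24534 for surface epithelium markers, had 0 counts of Serpinb11. The lowest limma-trend adjusted p of these 4 serpins was 0.698, and without WT 1 and WT 8 it was 0.701.

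**Figure D4:**
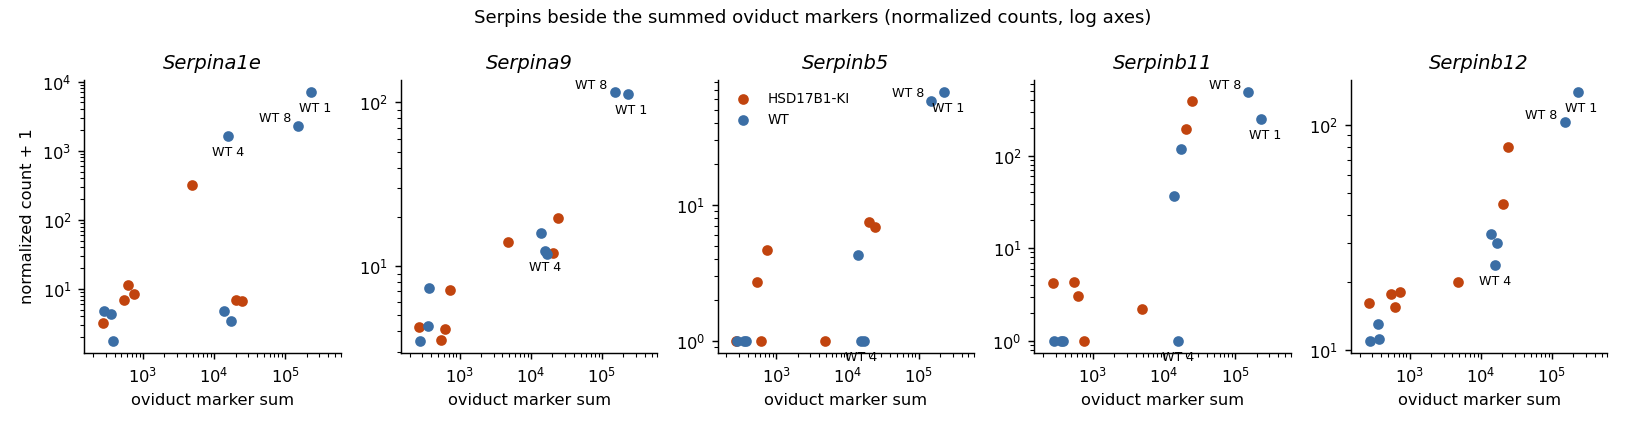
Normalized count + 1 of Serpina1e, Serpina9, Serpinb5, Serpinb11 and Serpinb12 (vertical) against the summed normalized counts of 8 oviduct markers (horizontal), both on log axes, for HSD17B1-KI (red) and WT (blue) libraries. WT 1 and WT 8 have the 2 highest marker sums, 229483 and 151084, and the 2 highest values of Serpina1e, Serpina9, Serpinb5 and Serpinb12. They are also highest in summed neutrophil and ovarian surface epithelium markers. Serpina1e is high in WT 4 too, but not in HSD17B1-KI 1, HSD17B1-KI 3 or WT 7, whose oviduct sums exceed that of WT 4. In those mice the neutrophil sums were 504 to 967 and the surface epithelium sums 16380 to 19766, against 5948 and 24534 in WT 4.

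The serpins of the plasma cascades and the noninhibitory serpins differed little between the groups. Serping1, the C1 inhibitor of the complement start, averaged 7395 ± 1448 in HSD17B1-KI (SD, n = 7) and 7435 ± 635 in WT mice (SD, n = 8), with a log2 difference of -0.03 (95% interval -0.25 to 0.20). Serpinc1, antithrombin, averaged 119 ± 27 and 111 ± 19.3 (log2 difference 0.09, 95% interval -0.27 to 0.44), and Serpind1, heparin cofactor II, had 6.02 at most in any mouse. Serpinh1 ranged from 27167 to 42489 with a median of 29951 in HSD17B1-KI and from 29150.4 to 52418 with a median of 34763 in WT mice (log2 difference -0.18, 95% interval -0.48 to 0.13). Serpinf1, or PEDF, an antiangiogenic serpin that inhibits no protease, averaged 5333 ± 1158 and 5253 ± 644 (log2 difference 0.01, 95% interval -0.23 to 0.24). Serpini1, neuroserpin, an inhibitor of tissue plasminogen activator, averaged 465 ± 102 in HSD17B1-KI and 369 ± 68.6 in WT mice, and 6 of 7 HSD17B1-KI mice exceeded the WT mean (log2 difference 0.33, 95% interval 0.02 to 0.63, limma-trend adjusted p = 0.472). Over the 22 tested serpins outside clade A the median log2 difference was 0.01, and over the 18 of clade A 0.77.

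**Figure D5:**
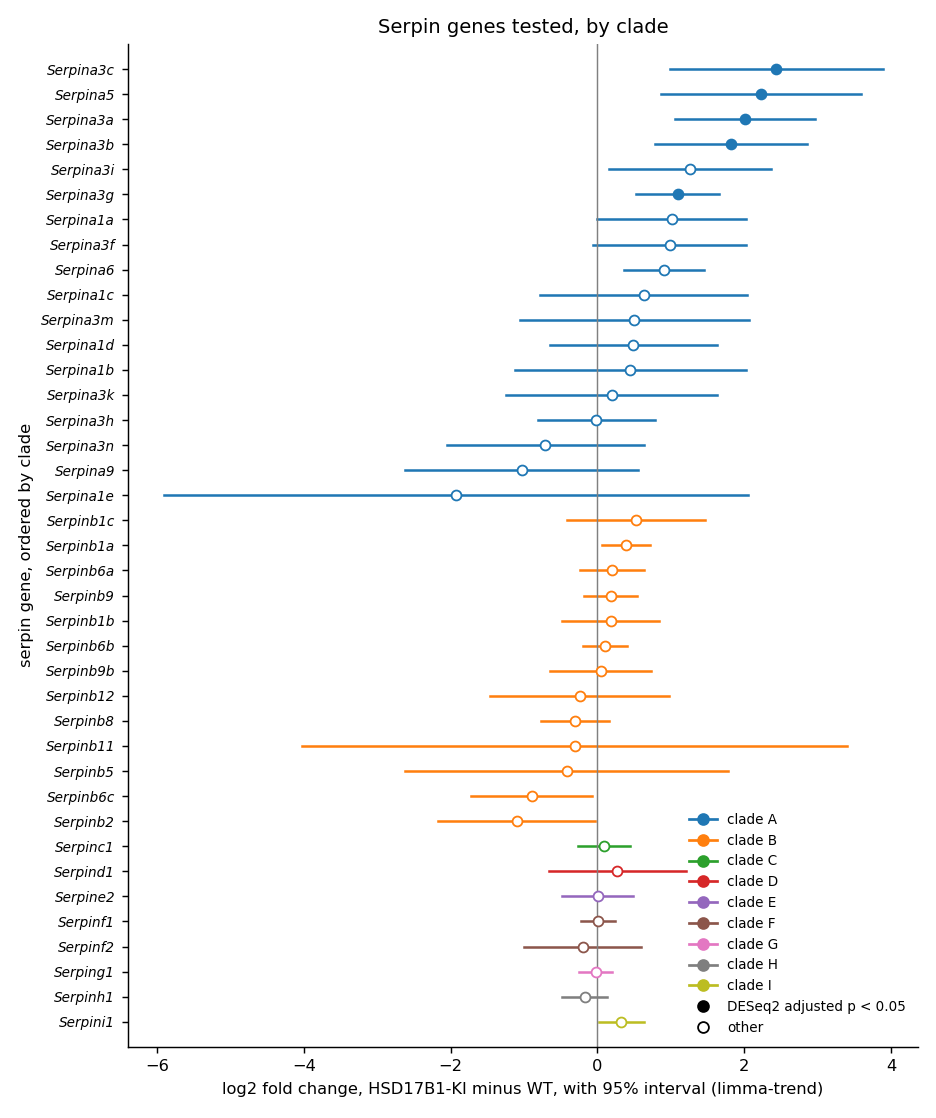
Log2 difference between HSD17B1-KI and WT of tested serpins (horizontal, limma-trend, bars: 95% intervals), ordered and colored by clade, with filled points for a DESeq2 adjusted p under 0.05. The 5 filled points are all of clade A. The points of the other clades scatter about 0, with wide intervals for sparse genes. Among the more abundant of them, the intervals of Serpinb1a (0.06 to 0.72) and Serpini1 (0.02 to 0.63) lie above 0.

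The proteases that serpins hold were described from lists of known genes. In the plasminogen list, 1 of 9 tested genes was lower and 0 higher at an unadjusted limma-trend p under 0.05. Over all genes tested 4.64% were lower and 5.36% higher by that measure, so about 1 such gene in a list of this size is near the background, here and in the lists that follow. It was Plat, tissue plasminogen activator and a target of Serpine2 and Serpini1, with 3702 ± 1126 normalized counts in HSD17B1-KI (SD, n = 7) and 6798 ± 3893 in WT mice (SD, n = 8). All 7 HSD17B1-KI mice lay below the WT mean and 3 below every WT mouse (log2 difference -0.76, 95% interval -1.36 to -0.16, limma-trend adjusted p = 0.349, DESeq2 adjusted p = 0.0878). In the coagulation list 1 of 13 was lower, the cofactor F5 (43.6 ± 28.5 and 122 ± 117, log2 difference -1.27, limma-trend adjusted p = 0.398), and 0 were higher.

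Among 9 complement proteases C2 was higher (log2 difference 0.49) and Cfd, which adipocytes also make, lower (log2 difference -1.62) at an unadjusted limma-trend p under 0.05, with adjusted p = 0.319 and 0.388. Of 8 leukocyte proteases 1 was lower, the sparse granzyme gene Gzmk. Of 16 other secreted or membrane serine proteases 1 passed the adjusted test, beside 0.214% of all genes: Pcsk6, a proprotein convertase that activates growth factors, rose from 3126 ± 535 in WT (SD, n = 8) to 4610.1 ± 547 in HSD17B1-KI mice (SD, n = 7). Of the HSD17B1-KI mice 6 exceeded every WT mouse (log2 difference 0.57, 95% interval 0.34 to 0.80, limma-trend adjusted p = 0.0468, DESeq2 adjusted p = 0.000573). With 1 mouse left out Pcsk6 kept an adjusted p under 0.05 in 3 of 15 limma-trend fits, without HSD17B1-KI 5, HSD17B1-KI 6 or WT 5, and in 15 of 15 DESeq2 fits, and its limma-trend adjusted p was 0.174 without WT 1 and WT 8. The list also held Tmprss6, higher at an unadjusted p under 0.05 (log2 difference 0.80, limma-trend adjusted p = 0.452), and Plat. Prss35, the most abundant protease of that list, varied widely, with 68834 ± 65976 in HSD17B1-KI and 69820 ± 54717 in WT mice. Of 25 inhibitors of other families, Cst3 (cystatin C) was higher and A2m (alpha-2-macroglobulin) lower at an unadjusted p under 0.05 (limma-trend adjusted p = 0.217 and 0.358). The most abundant genes of the other lists, Lrp1, Tfpi, C1s1, Tpsb2 and Itih5, had log2 differences from -0.16 to 0.61. The medians of the 6 lists lay between -0.25 and 0.13 on the log2 scale.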

How the data were processed

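Total RNA of ovaries was made into stranded mRNA libraries and sequenced. Per the labels and the study's methods, the authors demultiplexed the reads (bcl2fastq 2.20), trimmed them (Skewer), aligned them to mm10 (STAR 2.7.3) and counted them on genes. The counter, annotation and use of strand are not given in the sources used here. The deposited values are a signal, gene counts divided by 1 size factor per library, and 100% of them were whole multiples of 1 read (tolerance 0.001), so whole reads were recovered for the count tests. The main test was limma-trend (limma 3.58.1, R 4.3.3) on log2(normalized count + 1) with genotype as the sole term, restricted to genes averaging 2 or more, two-sided, with Benjamini-Hochberg adjustment; fold changes of sparse genes are understated on this scale. edgeR 4.0.16 (quasi-likelihood, TMM) and DESeq2 1.42.0 ran on the recovered reads. Single genes were also tested by exact permutation over 6435 splits. The scripts were tested on simulated data. The members and lists were chosen with earlier results of these data known. Genes were named if they were tested Serpina3 paralogs, Serpine2, the highest of a clade per kilobase, listed by the study (Serpina3a, Serpina3b and Serpina5), or at an unadjusted p under 0.05 or called by edgeR or DESeq2; of the protease lists, up to 6 genes at an unadjusted p under 0.05 and the highest. The values of 1 tested serpin are not reported here or plotted by clade. Exon lengths and coordinates came from GENCODE M21, promoters from RefSeq. Labels name separate mice, so p-values measure the spread between animals. Alternatives were another pseudocount, filter, scaling or tool, a replicate block, and each mouse left out; DESeq2 without each mouse, and both fits without WT 1 and WT 8, were added after the data were seen.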

Additional observations from a re-analysis of the deposited data

Results flagged for a closer look

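In 4 of 48 groups of values, 1 mouse stood far from the others of its genotype by Dixon's ratio on the log2 scale; chance alone marks about 1 in 20 groups. Serpina3a was lowest in WT 6 at 17.5 normalized counts, the next being 46.2. Serpina3c was lowest in HSD17B1-KI 5 at 393, the next being 2253. Serpina6 was highest in HSD17B1-KI 7 at 39.0, the next being 17.9. Serpinf1 was highest in HSD17B1-KI 5 at 7869.9, the next being 5235. In HSD17B1-KI 5 both Serpina3c and Serpinf1 stood apart, and it was the mouse whose omission gave 4 serpin calls in limma-trend.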

How the results depend on the processing

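Over all genes, limma-trend called 46, and 28 with no filter on low values, 22 with upper quartile scaling, 50 by edgeR, 456 by DESeq2, 9 without WT 1 and WT 8, and 6 (without HSD17B1-KI 2) to 139 (without HSD17B1-KI 5) with 1 mouse left out. No serpin was called under another pseudocount, filter or scaling, by edgeR or without WT 1 and WT 8, whereas DESeq2 called 5 and the fits with 1 mouse left out 0 to 4. DESeq2 called 272 to 674 genes and 2 to 7 serpins with 1 mouse left out, the 2 without HSD17B1-KI 1 or HSD17B1-KI 2 and the 7 without WT 3. That last fit added Serpina3f, higher in HSD17B1-KI, and Serpina1e, lower in HSD17B1-KI. Serpina1e was called lower in 3 of 15 such fits, without WT 3, WT 7 or HSD17B1-KI 6. Without WT 1 and WT 8 DESeq2 called 244 genes and 3 serpins. The labels number the mice of both genotypes but do not say that a number pairs them. The correlation of same-numbered mice ran from -0.55 to 0.55, which cannot show whether a number marks a litter, day or batch. With the replicate block, which drops WT 8, 0 genes and 0 serpins were called.

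Genes whose sign turned were these. Serpina3h was -0.02 on the log2 scale, but 0.030 with pseudocount 10, 0.13 by edgeR, 0.12 by DESeq2, 0.054 with the block and 0.067 without WT 1 and WT 8, and -0.18 to 0.24 (DESeq2 -0.10 to 0.30) with 1 mouse left out. With 1 mouse left out, Serpina3k ran from -0.24 to 0.50 (DESeq2 -1.18 to 0.95), Serpine2 from -0.070 to 0.16 (DESeq2 -0.066 to 0.12), Serpinf1 from -0.091 to 0.050 (DESeq2 -0.10 to 0.065) and Serping1 from -0.10 to 0.031 (DESeq2 -0.091 to 0.046). By DESeq2 alone, Serpina3n ran from -0.62 to 0.21 and Serpind1 from -0.29 to 0.43. Without WT 1 and WT 8, Serpind1 was -0.047 (DESeq2 -0.15), Serpine2 -0.043 (DESeq2 -0.048) and Serpinf1 -0.050 (DESeq2 -0.034), and Serpinf1 was -0.0068 with the block. Tfpi was -0.0077 (DESeq2 -0.012) without WT 1 and WT 8, and Prss35 ran from -0.43 to 0.12 (DESeq2 -0.53 to 0.30) with 1 mouse left out.

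The serpins highest in WT 1 and WT 8 depended on them. Without both, Serpinb11 was 1.29 (DESeq2 1.73), Serpinb12 0.44 (DESeq2 0.60) and Serpinb5 0.98 (DESeq2 2.08). Serpina1e was 0.23 by limma-trend, the only 1 of 40 alternative fits in which its sign turned, so it stayed negative by DESeq2. Serpina1b, which was not highest in those 2 mice, was -0.14 by DESeq2 without them. With the block, Serpinb11 was 0.45, Serpinb12 0.019 and Serpinb5 0.17, and with pseudocount 0.1 Serpinb11 was 0.60 and Serpinb5 0.096. With 1 mouse left out, Serpinb11 ran from -1.20 to 0.45 (DESeq2 -1.72 to 0.57), Serpinb12 from -0.52 to 0.082, Serpinb5 from -0.68 to 0.20 (DESeq2 -3.09 to 2.19), and by DESeq2 Serpina1b from -0.66 to 0.68 and Serpina9 from -2.39 to 0.0019. The causes were not tested. The mouse numbers, 7 and 8, and the spread between mice limit the precision; counts of a few reads limit Serpina3k, Serpina3m, Serpind1, Serpinb2 and Serpinb6c.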
